A study of Mus musculus with 8 samples.

Results

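The genes described here are 9 regulators and surface proteins of the muscle stem cell lineage: Pax7, Myf5, Myod1, Myog, Myf6, Mymk, Cdh15, Vcam1 and Ncam1. They were chosen by name, by a rule that takes no measured value, with earlier results of these data known, and all 9 were found among the 20681 rows of the deposited table. The table holds poly-A RNA sequencing of mouse knee joints in 8 libraries, of which 4 are labelled control and the other 4 knockout. The labels place all 8 in mice that carry Acan-Cre and Loxl2 fl/fl alleles. The control joints are described as vehicle-treated and carry LOXL2wt in their library names, and the other 4 are described as conditional knockouts and carry LOXL2ko. DMM stands in all 8 library names and is not spelled out; it usually denotes destabilisation of the medial meniscus, a surgical joint injury. Sex, age, the time after surgery and what the knockout animals received in place of vehicle are not given in the sources used here. Acan, which drives the Cre, is a gene of cartilage cells, so the labels name no deletion in muscle cells, and any change in muscle genes is read in a whole joint.

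Values are normalised read counts, that is, reads per gene divided by the authors' size factor for the library. The 8 libraries held 13991000 to 17411617 reads assigned to genes. The targeted gene went against its label. Control replicates 1 to 4 held 282, 349, 1135 and 311 normalised reads of Loxl2, against 893, 1468, 960 and 1518 where the label is knockout, a log2 difference of 1.44 (SE 0.40, limma adjusted p = 0.0294). The groups overlapped, because control replicate 3 lay above the libraries labelled knockout 1 and 3. The groups are therefore called by their labels throughout. Skeletal muscle was a large part of the tissue sampled: 19 genes of mature fibres, among them Acta1, Ckm and Myh4, took 16.0% to 16.3% of the summed values in the control libraries. They took 10.1% to 12.8% in the libraries labelled knockout, with no overlap (difference -4.52 percentage points, exact permutation p = 0.0286, the smallest that 4 against 4 allows). Aggrecan, the defining gene of cartilage, was present in every library, from 52.3 to 544 normalised reads.

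Satellite cells are the stem cells of skeletal muscle and lie between the fibre and its basement membrane. They carry the transcription factor PAX7 when quiescent, carry the myogenic regulatory factors MYF5 and MYOD1 when activated, and differentiate under myogenin (Myog). MYF6, also called MRF4, is a factor that mature fibres keep. Differentiating myoblasts fuse through the membrane proteins myomaker (Mymk) and myomixer (Mymx). M-cadherin (Cdh15), VCAM1 and NCAM1 are adhesion molecules of the satellite cell surface. Vcam1 is also expressed by activated endothelium, synovial fibroblasts and macrophages, and Ncam1 also by nerve, Schwann cells and fibres that have lost their nerve.

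The 4 myogenic regulatory factors are paralogs, so their sequences are shown first, because the counts below depend on telling them apart. The 90 coding bases of Myod1 most like the other factor genes were taken, with their best match in each of those. These stretches lie in exon 1 of 3 in each gene, within the part that encodes the DNA-binding and dimerisation domain. They are printed 5′ to 3′ in the direction of transcription (GENCODE M21 transcripts, GRCm38), with capitals for the 58 bases that are identical in all 4. Myod1 lies at chr7:46377051-46377140 on the plus strand, Myf5 at chr10:107485542-107485631 on the minus strand, Myog at chr1:134290350-134290439 on the plus strand and Myf6 at chr10:107494285-107494374 on the minus strand.
Myod1: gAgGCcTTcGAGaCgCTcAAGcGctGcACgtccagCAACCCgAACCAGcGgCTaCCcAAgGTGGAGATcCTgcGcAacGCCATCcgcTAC
Myf5: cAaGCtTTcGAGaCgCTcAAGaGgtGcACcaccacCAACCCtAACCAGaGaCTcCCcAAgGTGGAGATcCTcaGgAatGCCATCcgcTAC
Myog: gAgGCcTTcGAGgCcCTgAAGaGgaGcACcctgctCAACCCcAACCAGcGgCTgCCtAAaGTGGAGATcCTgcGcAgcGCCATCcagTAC
Myf6: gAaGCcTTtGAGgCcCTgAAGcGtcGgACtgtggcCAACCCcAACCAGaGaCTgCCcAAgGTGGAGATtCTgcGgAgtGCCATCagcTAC
Over this stretch Myod1 and Myf5 were the most alike pair, with 82.2% of bases identical, and Myf5 and Myog the least, with 72.2%. The stretch was chosen by likeness to Myod1, which favours pairs that hold Myod1. Across whole transcripts the longest run shared by any pair was 26 bases, between Myod1 and Myf5, and the other 5 pairs shared runs of 12 to 21. Any read longer than 26 bases thus differs between the paralogs.

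Myog is known as a target of the other factors, which bind the E-box CANNTG. Its promoter, the 250 bases before the RefSeq start (GRCm38.p6, chr1:134289754-134290003, plus strand), is shown with the E-boxes in capitals.
Myog promoter: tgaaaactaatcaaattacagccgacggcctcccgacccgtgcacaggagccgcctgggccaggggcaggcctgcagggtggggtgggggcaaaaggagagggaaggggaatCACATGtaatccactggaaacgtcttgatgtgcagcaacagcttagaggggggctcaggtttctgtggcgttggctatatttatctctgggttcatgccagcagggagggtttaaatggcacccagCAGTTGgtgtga
It holds 2 matches to CANNTG, which begin 138 and 12 bases before the start. The motif reads the same on both strands, and 31.8% of the 32851 RefSeq windows of this length hold at least 2, so the matches are a description only. RefSeq windows matched 4 of the 9 genes: those of Pax7 and Myf5 held 0 matches and that of Cdh15 held 3, as many as 12.2% of all windows hold or exceed. GENCODE M21 starts Myog at 134289989, inside the window shown, so the match nearer the RefSeq start lies within the GENCODE gene. The windows of Pax7 and Cdh15 lie wholly inside their GENCODE genes, so they are upstream of the RefSeq starts only.

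The 9 genes did not all move in the same direction. Of the 9 genes, 8 passed the filter on low values (at least 10 in at least 4 libraries). Among them the adhesion genes Ncam1 and Vcam1 rose in the libraries labelled knockout, to 1.81 and 2.15 times the control mean, and Myf6 fell to 0.690 times. Pax7, Myf5, Myod1, Myog and Cdh15 did not pass the test, and all of these except Myf5 had a negative log2 difference. Ncam1 and Vcam1 are also expressed outside the lineage, and the cells in which they changed were not tested. Those 2 rises and 1 fall are read against a table in which limma called 11.6% of the 14949 genes tested higher and 11.6% lower at an adjusted p under 0.05. No overlap between the groups was seen for Ncam1 upwards and for Myod1 and Myf6 downwards; among all genes tested the share was 11.7% upwards and 13.4% downwards. Without regard to direction, 25.1% of all genes tested had groups that did not overlap, against 3 of the 8. With so few genes, these counts are a description of the set. The median log2 difference of the 8 genes was -0.33, against 0.00 for all genes tested. In whole tissue, fewer cells of a type and less RNA per cell cannot be told apart.

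**Figure D1:**
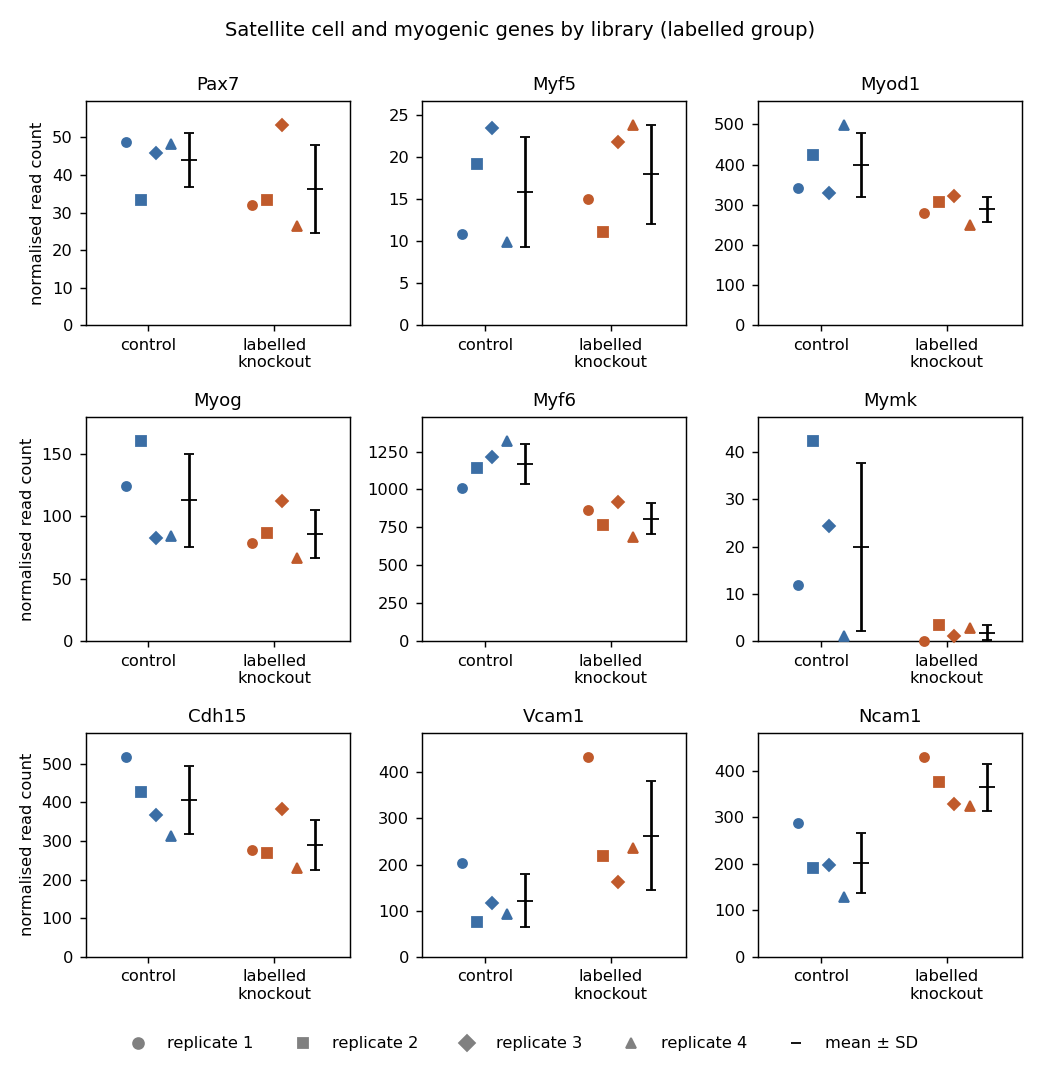
Normalised read count (linear axis from 0) of the 9 genes in each library, 1 marker shape per replicate number, with the group mean ± SD beside it (n = 4 per group). Ncam1 lies above every control library in all 4 libraries labelled knockout, and Myod1 and Myf6 lie below; Mymk is at or under 3.42 in all 4.

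Pax7, the marker of the quiescent and activated stem cell, gave no difference that passed the test. Control replicates 1 to 4 gave normalised counts of 48.7, 33.3, 45.8 and 48.2, and the libraries labelled knockout gave 31.9, 33.4, 53.3 and 26.4. The groups overlapped at both ends, since the highest library of all was labelled knockout replicate 3 and control replicate 2 was as low as that of knockout replicate 2. The log2 difference was -0.31 (SE 0.26, limma adjusted p = 0.424), with a 95% confidence interval of -0.89 to 0.28. The counts rest on 33 to 49 recovered reads per control library.

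Myf5, a factor that activated cells carry, was scarcer still. It was read at 10.8, 19.2, 23.4 and 9.86 normalised counts in the control libraries and at 15.0, 11.1, 21.7 and 23.8 in those labelled knockout. Each group held libraries near 10 and libraries above 20, so they were interleaved. The log2 difference of 0.20 (SE 0.39, limma adjusted p = 0.742) had an interval of -0.67 to 1.06. The counts rest on 9 to 27 reads per library. Myf5 varied more within groups than most genes (SD 0.53 on the log2 scale, against a median of 0.24 over all genes tested).

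Myod1, the factor that commits cells to myogenesis, was lower in all 4 libraries labelled knockout than in any control. The control counts were 342, 425, 330 and 498, and those of the libraries labelled knockout 279, 306, 321 and 250. The gap was narrow, because control replicate 3 at 330 stood just above knockout replicate 3 at 321. The log2 difference was -0.45 (SE 0.15), the limma adjusted p was 0.0534, which missed the threshold, and the exact permutation p was 0.0286. edgeR and DESeq2 on the recovered reads placed it just past the threshold (edgeR adjusted p = 0.0493, DESeq2 adjusted p = 0.0310). Without the filter, edgeR did not call it (edgeR adjusted p = 0.0582). Limma called it in 3 of 8 fits that left out a library. Its call thus depended on the tool, the filter and the libraries kept. Of all genes tested, edgeR called 10.9% lower and DESeq2 13.3%.

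Myogenin, the factor of terminal differentiation, gave control counts of 124, 160, 82.3 and 84.3 and counts of 78.8, 86.4, 112 and 66.9 in the libraries labelled knockout. Control replicates 1 and 2 were the highest of the 8, and the other libraries of both groups lay between 66.9 and 112. The log2 difference was -0.36 (SE 0.25, limma adjusted p = 0.323). Its log2 ratio to Pax7 was 1.30 ± 0.67 in controls and 1.25 ± 0.13 (SD, n = 4) in libraries labelled knockout, a difference below the spread (exact permutation p = 0.943).

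Myf6 was the most abundant of the 4 factors and the only gene of the 9 that limma called lower. The control libraries held 1007, 1140, 1212 and 1321 normalised counts, and the libraries labelled knockout 865, 765, 915 and 684. The lowest control library exceeded the highest of the other group. The log2 difference was -0.54 (SE 0.12, limma adjusted p = 0.0128, exact permutation p = 0.0286), and the limma call held in 8 of 8 fits that left out a library. Its spread within groups was small (SD 0.18 on the log2 scale). Its size was like that of the mature fibre genes, whose median log2 difference was -0.68. The log2 ratio of Myf6 to Myog was 3.41 ± 0.58 in controls and 3.23 ± 0.19 in libraries labelled knockout (SD, n = 4), with no difference past the threshold (exact permutation p = 0.600). Myf5 and Myf6 are neighbours on chromosome 10 of mm10, on the minus strand from 107482908 to 107486134 and from 107492853 to 107494737, 6.72 kb apart.

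The myomaker gene Mymk, which encodes the membrane protein that drives myoblast fusion, was read in few fragments and did not pass the filter. Control replicates 1 to 4 gave 11.9, 42.4, 24.3 and 1.10 normalised counts, and the libraries labelled knockout 0, 3.42, 1.09 and 2.64. In reads, 80 were counted over the 4 control libraries and 8 over the other 4. Control replicate 4 lay within the range of the libraries labelled knockout, so the groups overlapped, and the exact permutation p was 0.0857. Fits over the whole table without the filter did not concur: limma gave a log2 difference of -2.45 (adjusted p = 0.0838), edgeR on the recovered reads -3.34 (adjusted p = 0.0405) and DESeq2 -3.45 (adjusted p = 0.00450). The edgeR and DESeq2 fits without a filter were added after the values had been seen. Mymx, the gene of its partner myomixer, averaged 3.12 ± 3.14 and 4.15 ± 3.26 (SD, n = 4), too few reads to compare.

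Genes of the proteins of newly formed fibres, which appear as myoblasts fuse, were read alongside. Of 7 such genes tested, limma called 2 lower and 0 higher (0 at an unadjusted p under 0.05, 0 by edgeR and 0 by DESeq2), with a median log2 difference of -0.42. Of all genes tested, 11.6% were called lower. Myh8, the perinatal myosin heavy chain, stood at 241, 742, 467 and 210 in the control libraries and at 190, 112, 172 and 145 in those labelled knockout (log2 difference -1.26, SE 0.37, limma adjusted p = 0.0342). As for Mymk, control replicates 2 and 3 were the highest for Myh8 and control replicate 4 the lowest of its group. Myh3, the embryonic myosin heavy chain, did not follow that order, with 426, 411, 234 and 543 in the controls and 132, 189, 211 and 237 in the libraries labelled knockout (log2 difference -1.04, SE 0.26, limma adjusted p = 0.0204). The other 5, Myl4, Actc1, Nes, Myl6b and Ankrd1, ranged from -0.51 to 0.09 and were not called.

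**Figure D2:**
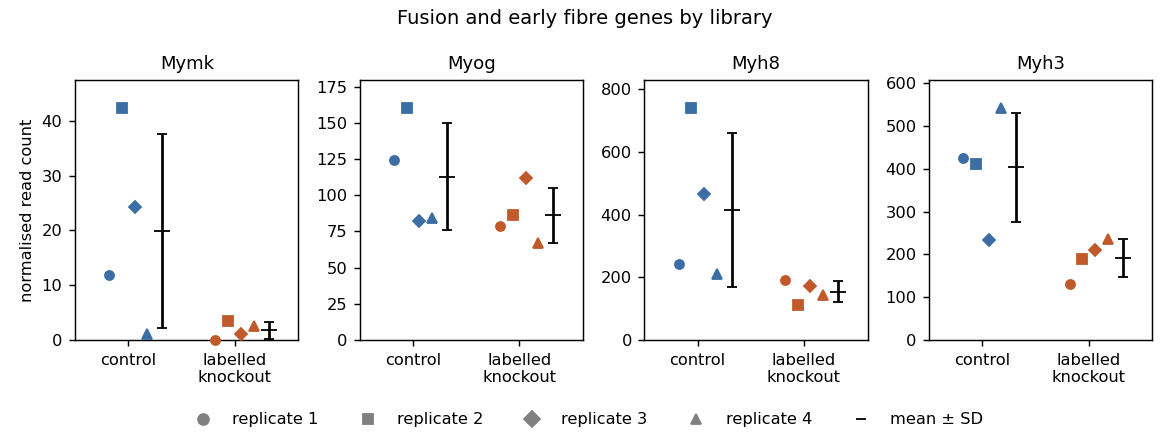
Normalised read count (linear axes from 0) of the fusion gene Mymk, the differentiation factor Myog and the early myosin heavy chains Myh8 and Myh3 in each library, with group mean ± SD (n = 4). Control replicate 2 is highest for Mymk (42.4), Myog (160) and Myh8 (742), while for Myh3 control replicate 4 is highest (543).

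M-cadherin (Cdh15), which joins satellite cells to fibres and myoblasts to each other, was lower in 3 of the 4 libraries labelled knockout than in any control. The control libraries held 518, 426, 366 and 313, and those labelled knockout 276, 269, 383 and 231. The exception was knockout replicate 3 at 383. The log2 difference of -0.49 (SE 0.19) did not pass (limma adjusted p = 0.0862, exact permutation p = 0.0857), and without that library it did (-0.63, limma adjusted p = 0.0291).

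Ncam1 had the firmest rise of the 9. It stood at 288, 191, 197 and 129 in the control libraries and at 430, 375, 327 and 323 in those labelled knockout. The groups did not overlap, and the nearest values were 288 in control replicate 1 and 323 in knockout replicate 4. The log2 difference was 0.90 (SE 0.22, limma adjusted p = 0.0176, exact permutation p = 0.0286), and the limma call held in 8 of 8 fits that left out a library. Ncam1 lies on chromosome 9 from 49502136 to 49798925 on the minus strand of mm10, and the antisense gene Gm11149 shares 4.81% of its exon bases. Gm11149 averaged 2.17 normalised reads, and whether the counting used strand is not given in the sources used here.

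Vcam1 rose by more and less evenly. The control counts were 203, 74.7, 117 and 93.1, and the libraries labelled knockout held 434, 218, 162 and 237. Labelled knockout replicate 1 was far above the rest, and knockout replicate 3 at 162 lay below control replicate 1 at 203, so the groups overlapped. The log2 difference was 1.11 (SE 0.35, limma adjusted p = 0.0451, exact permutation p = 0.0571). The limma call was lost in 6 of 8 fits that left out a library, every one except those without control replicate 1 or knockout replicate 3, and the adjusted p then ran up to 0.118. It was also lost with edgeR (edgeR adjusted p = 0.0526), which called 11.3% of all genes tested higher, and held with DESeq2, which called 14.3% higher. Relative to Pax7, the log2 ratio of Vcam1 was 1.36 ± 0.48 in controls and 2.78 ± 0.90 (SD, n = 4) in libraries labelled knockout. That difference of 1.41 did not pass an exact permutation test (p = 0.0571, 0.171 adjusted over the 3 ratios examined).

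Cell types other than the satellite cell that are known to carry VCAM1 or NCAM1 differed in how their own genes moved. Of 11 fibroblast genes tested, limma called 9 higher and 0 lower (0 at an unadjusted p under 0.05, 0 by edgeR and 0 by DESeq2), with a median log2 difference of 1.67. Postn, the periostin gene (3.42), the collagen gene Col5a1 (1.96), Pdgfra (1.31) and Lum (2.24) had the smallest p-values. Their summed share was 0.305% to 0.913% of the control libraries and 1.29% to 2.32% of those labelled knockout. Shares are percent of the summed normalised values, which were lower in every library labelled knockout. A gene of unchanged value therefore gains share there. Of 9 macrophage genes 7 were called higher, with a median of 1.28, led by C1qb (1.28), Cd68 (1.71), C1qa (1.18) and Adgre1 (1.49), and their share went from 0.00828% to 0.0197% up to 0.0363% to 0.0518%. Among all genes tested, limma called 11.6% higher. The part of these cells in the Vcam1 difference was not tested.

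Endothelial genes gave no call. Of 10 tested, limma called 0, with 0 at an unadjusted p under 0.05, 0 by edgeR and 0 by DESeq2, and the median was -0.08. Their share, with the limit given above for shares, was 0.0310% to 0.0415% in controls and 0.0285% to 0.0543% in libraries labelled knockout. Selp, P-selectin of activated endothelium, had the smallest p (0.61, limma adjusted p = 0.255). Among 9 Schwann cell and nerve genes, S100b (1.18, limma adjusted p = 0.00588) and Pmp22 (0.55, limma adjusted p = 0.0162) rose. Sox10, a defining gene of the lineage (0.25, limma adjusted p = 0.568), did not pass, and the median of the list was -0.10. Their share was 0.00946% to 0.0142% against 0.0136% to 0.0189%, under the same limit, so it is not read as a rise of these genes. S100b is also a gene of cartilage and Pmp22 of fibroblasts. Among 8 genes of pericytes and smooth muscle, Cspg4 (0.74) was called higher and Abcc9 (-0.49) lower, and the share was 0.0554% to 0.0721% against 0.0608% to 0.0812%. None of the genes in these cell type lists was at 0 in every library. The calls in these lists are read against 11.6% of all genes tested called higher by limma and 11.6% called lower. The part of these cells in the Ncam1 difference was not tested.

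Fibres that have lost their nerve switch on Ncam1 and Myog together with receptors of the synapse, so a list of genes of that response was read beside them. Of 7 tested, limma called 1 higher and 0 lower (0 at an unadjusted p under 0.05, 0 by edgeR and 0 by DESeq2), with a median log2 difference of -0.16. The gene called was Runx1 (286 ± 121 to 741 ± 195, log2 difference 1.40, limma adjusted p = 0.00911), which is also a gene of blood and cartilage cells. The acetylcholine receptor subunit gene Chrna1 had a difference of -0.67 (limma adjusted p = 0.173), the synaptic kinase gene Musk -0.58 (0.249) and Gadd45a 0.07 (0.749). Known binding partners of VCAM1 and NCAM1, and adhesion molecules that act beside them, were read too. The integrin subunit Itga4, which pairs with VCAM1, stood at 185 ± 46.5 and 156 ± 19.2 (limma adjusted p = 0.420). Icam1 (0.66), an adhesion molecule that binds other integrins than VCAM1 does, and the NCAM-interacting receptor Fgfr1 (0.37) were the 2 of 9 genes called higher by limma. edgeR called 1 and DESeq2 called 2 higher, and none was called lower (0 at an unadjusted p under 0.05, 0 by edgeR and 0 by DESeq2). Both lists are read against all genes tested, of which limma called 11.6% higher, edgeR 11.3% and DESeq2 14.3%.

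Per kilobase of exon, the 9 genes spanned a wide range. Mean normalised reads per kilobase in the control group were 926 for Myf6, 214 for Myod1, 125 for Cdh15, 75.5 for Myog, 23.2 for Ncam1, 13.8 for Vcam1, 13.2 for Mymk, 7.59 for Myf5 and 7.51 for Pax7. Neighbours in that order did not all differ beyond their spread. Myf6 in its lowest control library (797) exceeded Myod1 in its highest (268), and Myod1 (177 to 268) lay above Cdh15 (96.4 to 159), while Cdh15 overlapped Myog (55.0 to 107). Mymk ran from 0.725 to 28.1 per kilobase and overlapped Ncam1, Vcam1, Myf5 and Pax7. In the libraries labelled knockout the first 6 places were the same, with Ncam1 at 42.0 and Vcam1 at 29.6, and Mymk at 1.18 came last. With the longest transcript as the length, Vcam1 moved from 29.6 to 64.3 in the libraries labelled knockout and stood above Ncam1 (55.4) and Myog (57.5), so that part of the order depends on which exons are counted.

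**Figure D3:**
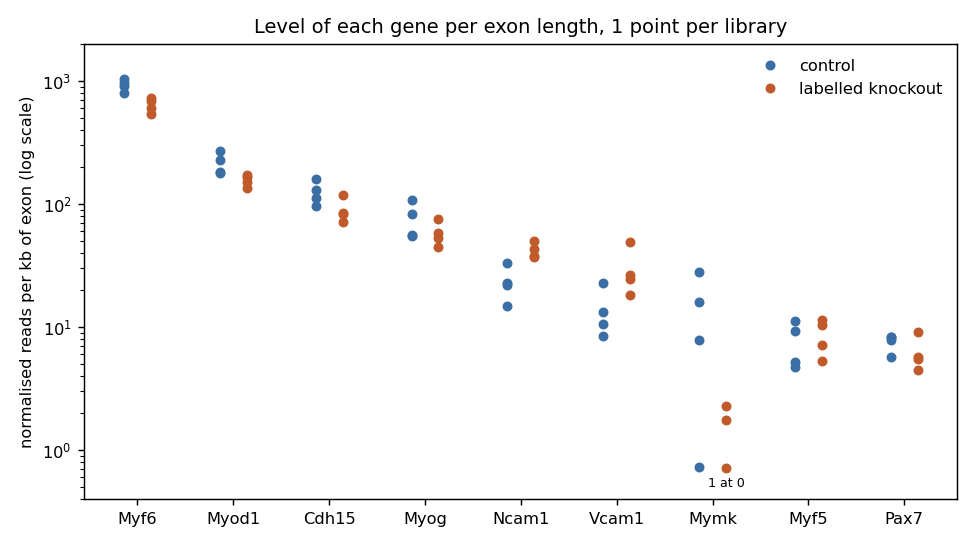
Normalised reads per kilobase of summed exon length (log axis), 1 point per library, genes ordered by their control mean. Myf6 (926 in the control group) and Pax7 (7.51) mark the ends; 1 Mymk library labelled knockout was at 0 and is marked by text.

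The genes were also set against the muscle fibres of the same joint. With every library scaled on the summed value of the 19 mature fibre genes, the log2 differences of Pax7, Myod1, Myog, Myf6 and Cdh15 turned from negative to positive, at 0.40, 0.28, 0.36, 0.19 and 0.24. On that scale 0 of the 8 genes was called lower and only Ncam1 (1.62, limma adjusted p = 0.000527) and Vcam1 (1.83, limma adjusted p = 0.00150) were called higher. It calls 72.4% of all genes tested higher and 0.107% lower, and moves their median to 0.72, so the values are read only as a comparison with fibre RNA. Relative to the median of all genes the differences hardly moved, from -0.54 to -0.53 for Myf6, from -0.31 to -0.32 for Pax7 and from -0.49 to -0.48 for Cdh15, so the changes of sign follow from the shift of that median. Per 100000 normalised reads of the fibre genes, Myod1 stood at 13.0, 15.0, 12.7 and 18.4 in the control libraries and at 15.6, 19.0, 17.7 and 18.7 in those labelled knockout. Myf6 stood at 38.2, 40.2, 46.7 and 48.7 against 48.3, 47.4, 50.3 and 51.3. The groups of both factors overlapped on this scale. Ncam1, at 4.76 to 10.9 in controls against a mean of 22.4 ± 2.93 (SD, n = 4), lay above all controls in every library labelled knockout, and so did Vcam1, at 2.64 to 7.72 against a mean of 16.1 ± 6.50.

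**Figure D4:**
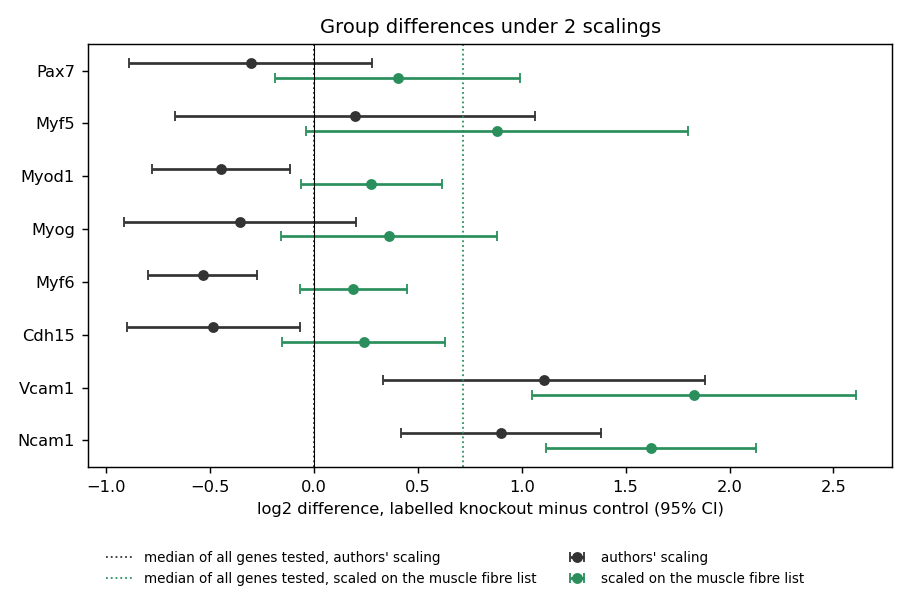
Log2 difference of the 8 genes past the filter (libraries labelled knockout minus control, points with 95% confidence intervals) under the authors' scaling and with libraries scaled on the 19 muscle fibre genes; dotted lines mark the median of all genes tested (0.00 and 0.72). Pax7, Myod1, Myog, Myf6 and Cdh15 lie below 0 under the first and above 0, yet below the dotted median, under the second.

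Of the 19 mature fibre genes, limma called 7 lower (13 by edgeR and 15 by DESeq2) and 12 did not pass. Among all genes tested, limma called 11.6% lower, edgeR 10.9% and DESeq2 13.3%. All 19 differences were negative. Casq1, which encodes the calcium-binding protein of the sarcoplasmic reticulum, fell by 0.79 on the log2 scale. Pygm, the muscle glycogen phosphorylase, fell by 0.91, and desmin (Des) and Myoz1 changed by -0.69 and -0.62.

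Genes of the proteins with which the myogenic factors work moved in both directions. They were read in whole joints, and the cells in which they changed were not tested. Of 18 such genes tested, limma called 6 higher and 5 lower, with a median of 0.01, against 23.2% of all genes tested called in either direction. The inhibitors Id2 (108 ± 22.6 to 347 ± 87.2, log2 difference 1.67, limma adjusted p = 0.00397) and Id3 (635 ± 130 to 1174 ± 110, 0.90, limma adjusted p = 0.00501), which bind the partners of the factors and keep them from DNA, both rose. So did Tcf4 (0.51, limma adjusted p = 0.0156), an E-protein partner of the factors, and Id1 (0.51), Twist1 (1.49) and Snai2 (1.58), which are also genes of connective tissue cells. The muscle co-activators Mef2c (-0.57, limma adjusted p = 0.00613) and Mef2d (-0.42, limma adjusted p = 0.00775) fell, and so did Eya4 (-0.44), which acts upstream of the factors, and Hdac5 (-0.28, limma adjusted p = 0.0432), a repressor of MEF2 proteins.

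Receptors and surface proteins of satellite cells that are not among the 9 genes gave 4 called higher of 17 tested and 0 lower (1 at an unadjusted p under 0.05, 0 by edgeR and 0 by DESeq2), with a median of 0.10. The share called, 23.5%, was near the 23.2% of all genes tested. The 4 were Megf10, a receptor of satellite cells (99.4 ± 19.1 to 215 ± 55.5, log2 difference 1.09, limma adjusted p = 0.00978), Notch2 (0.61), Sdc3 (0.87) and Sdc4 (0.40). In which cells of the joint these 4 rose was not tested. Calcr, the calcitonin receptor of quiescent satellite cells, had the highest log2 difference of the list, 1.46, at few reads (6.85 ± 4.95 and 19.9 ± 11.1), and did not pass (limma adjusted p = 0.0685). Itga7 had the lowest, -0.36, and did not pass either (limma adjusted p = 0.0746). Fgfr4 stood at 57.6 ± 9.59 and 56.7 ± 12.6 (limma adjusted p = 0.922). Among 13 fusion and adhesion genes 4 were called higher and 1 lower, with a median of 0.42. That is 38.5% called, against 23.2% of all genes tested, in a list of few genes. Elmo1 (0.66) was 1 of the 4 called higher. Kirrel (1.21), Cd9 (0.97) and Myof (1.09) rose, and all 3 are also expressed outside muscle, while dysferlin (Dysf), the membrane repair protein of fibres, fell by 0.61.

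Genes of secreted regulators of satellite cells moved both ways. Limma called 3 of 11 higher and 3 lower, with a median of -0.11, against 11.6% higher and 11.6% lower among all genes tested. Igf1, a growth factor of myoblasts and of macrophages, rose from 423 ± 235 to 1829 ± 586 (log2 difference 2.22, limma adjusted p = 0.00462), and Tgfb1 (0.99) and Lif (2.05) rose as well. Myostatin (Mstn), the brake on muscle growth that fibres secrete, fell from 616 ± 67.9 to 350 ± 98.2 (log2 difference -0.85, limma adjusted p = 0.0128). Gdf11 (-0.96) and the muscle growth factor Fgf6 (-0.99) fell too. Of 10 genes of cell division 0 was called by limma, with 1 at an unadjusted p under 0.05, 0 by edgeR and 1 by DESeq2. Their median log2 difference was 0.02, with 5 differences positive and 5 negative. The list includes the cell cycle inhibitors Cdkn1a (746 to 989) and Cdkn1c (277 to 404). Its summed share was 0.0131% to 0.0170% in controls and 0.0186% to 0.0211% in libraries labelled knockout. The summed values of all genes were lower in every library labelled knockout, so a share can rise with no rise in its genes. The gene of smallest p was the cell cycle inhibitor Cdkn1c (0.56, limma adjusted p = 0.0572).

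**Figure D5:**
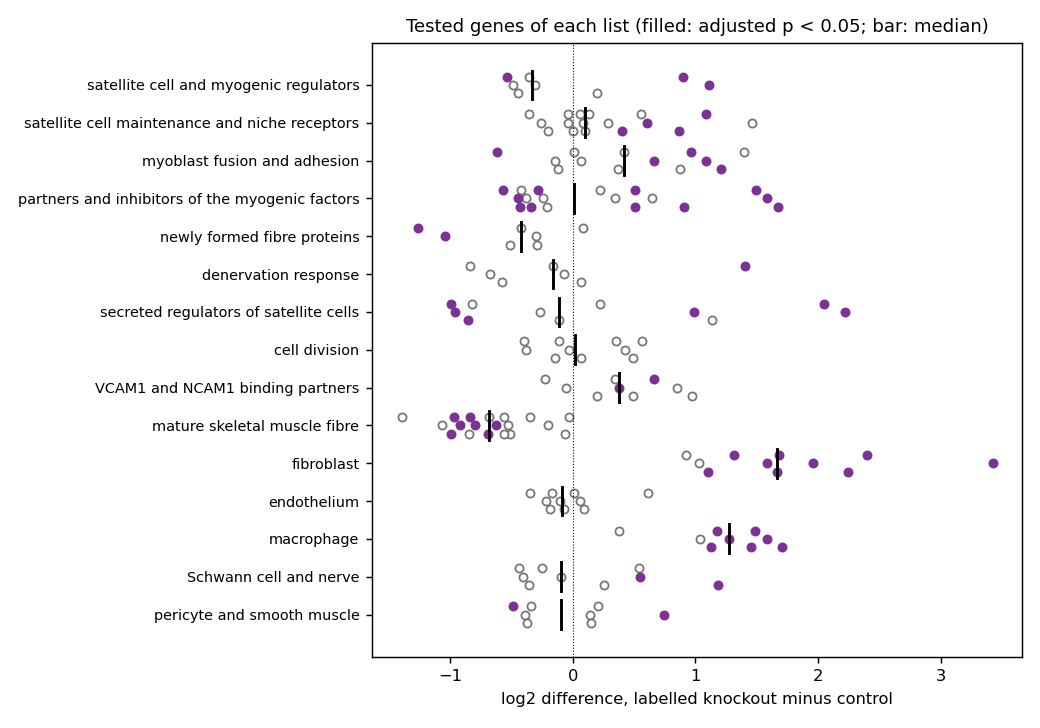
Log2 difference (libraries labelled knockout minus control) of every tested gene in the 9-gene set and in the lists read beside it; filled points passed an adjusted p of 0.05 (limma) and the bar is the list's median. The fibroblast and macrophage medians (1.67 and 1.28) lie highest and the mature muscle fibre median (-0.68) lowest.

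The genes whose pattern over the 8 libraries was closest to those of the set were found by the root-mean-square difference between log2 profiles centred on each gene's mean. Myf6 came closest to the pseudogene Tmed10-ps (0.0777) and to Tnni2, troponin I of fast fibres (0.0780). Myod1 came closest to Sco1 (0.0696) and Acat1 (0.0697), both genes of mitochondrial proteins. Pax7 was nearest to C1qtnf9 (0.121) and Robo4 (0.131), and Myog to Bche (0.123) and P2rx6 (0.148). Ncam1 was nearest to Mpzl1 (0.126) and Fut4 (0.147), Vcam1 to Cacna1d (0.181) and Rab11fip4 (0.189), and Myf5 to Sspo (0.206) and Dnase1l2 (0.211). Small distances are easier to reach for genes that vary little, and Mymk, which did not pass the filter, was not compared.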

How the data were processed

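The labels' protocols describe poly-T capture of messenger RNA and random hexamer priming. Per the series' design text and the submitters' processing notes, the authors aligned reads to mm10 (HISAT2), counted them with featureCounts and normalised with DESeq2. Versions, annotation, strand setting and filter values are not given in the sources used here. The deposited values are a normalised signal: in each column 100% were whole multiples (within 0.01) of the smallest positive value, so reads were recovered as whole numbers. In control replicate 2 and knockout replicate 1 the size factor is so near 1 that this step carries little information. Unmapped columns numbered 0. By symbol, 99.3% of rows matched GENCODE M21.

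Genes at 10 or more in at least 4 of 8 libraries (14949) were tested on log2(value + 1) with limma 3.58.1 (intensity trend, group only) and Benjamini-Hochberg adjustment over all genes tested; log2 differences are on that scale, which understates changes of low genes. Single values had exact two-sided permutation tests over 70 assignments (scipy 1.17.1). The labels do not state that each library came from its own animal, so p-values measure the spread between these samples. Alternatives were 2 pseudocounts, 2 filters, 4 scalings, edgeR 4.0.16, DESeq2 1.42.0, a replicate block and leaving out each library; the scripts were tested on simulated data. The genes, lists and tests were chosen with earlier results of these data known. Genes named were the 9 genes, Loxl2, up to 4 called genes of smallest p per list (the 1 of smallest p where none was called) and the 2 closest profiles per gene; other list genes named were chosen after their values were seen. Some genes that the rule names are not reported here. RefSeq promoters are of GRCm38.p6.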

Additional observations from a re-analysis of the deposited data

Results flagged for a closer look

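Of 28 sets of 4 libraries examined (the 9 genes, Loxl2, the 3 ratios and the muscle share, in each group), 1 held a library far from the other 3. It was Loxl2 in the control group, where control replicate 3 at 1135 stood apart from 282 to 349. The gap took 0.921 of the group's range, above Dixon's 95% limit for 4 values, a limit that chance passes in about 1 of 20 sets. None of the 9 genes was past that limit in either group.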

How the results depend on the processing

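In the fits over all genes Ncam1 kept its direction and call under all alternatives run, and Myf6 under all but the scaling on muscle fibre genes. That scaling turned 5 differences positive: Pax7 0.40, Myod1 0.28, Myog 0.36, Myf6 0.19 and Cdh15 0.24. Quantile normalisation turned Myf5 to -0.074. Myod1 passed the threshold with a filter of 50 (-0.45), quantile normalisation (-0.50), edgeR with the filter (-0.45), and DESeq2 with the filter (-0.46) or without (-0.46). It did not pass with edgeR without the filter (-0.46). Vcam1 lost its call under quantile normalisation (0.95), edgeR with the filter (1.11) and edgeR without it (1.10). The causes were not tested. Pax7, Myf5 and Mymk have no value with the filter of 50.

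Of 14949 genes 3461 were called, 10846 with the muscle scaling, and 1751 to 3841 when a library was left out (1751 without knockout replicate 4, 1887 without control replicate 2, 2194 without control replicate 4). Scaling on genes other than muscle and the 50 highest gave 2735 higher and 772 lower, against 1732 and 1729. The replicate block gave 2018; same-numbered libraries deviated together for 1 of 4 numbers (correlations -0.233 to 0.213), so the numbers were not taken to pair the libraries, and the block changed no call among the 8 genes.

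Leaving out a library, the difference of Myod1 ran from -0.53 to -0.33, of Cdh15 from -0.63 to -0.36 and of Vcam1 from 0.83 to 1.39. With 3 against 4 the exact permutation test cannot go below 0.0571, so the exact results of Myod1 (-0.53 to -0.33), Myf6 (-0.61 to -0.46), Ncam1 (0.71 to 1.09) and the muscle share (-4.92 to -3.99) no longer passed. The ratio of Myog to Pax7 ran from -0.22 to 0.26 and that of Myf6 to Myog from -0.38 to 0.000433.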

Other observations

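Tnnc2, the troponin C gene of fast fibres, averaged 11.9 normalised reads in the control libraries, beside 204698 for Tnnt3, the fast troponin T gene. In GENCODE M21, 74.0% of the exon bases of Tnnc2 lie in exons of Ube2c on the opposite strand, and Ube2c averaged 178 over the 8 libraries. Of the 9 genes, Ncam1 has the largest such overlap, 4.81%, Vcam1 has 0.688%, and the remaining 7 share 0 exon bases with another gene.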
